A study of Rattus norvegicus with 15 samples.

Results

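The genes described here are 10 members of the NF-κB system, chosen by symbol. They are the 5 subunits Nfkb1, Nfkb2, Rela, Relb and Rel, and 5 genes that hold the system in check or tune it, Nfkbia, Nfkbie, Bcl3, Tnfaip3 and Ikbke. They were read from the 20375 genes listed for rat retina, and all 10 were among the 15424 genes whose mean value was high enough to be tested. Expression is given as the regularized log (rlog) value that the authors deposited, which is on a log2 scale, corrected for library size and drawn toward the mean of each gene. Differences between rlog values are therefore smaller than differences between counts would be. The rlog value of a gene also depends on its transcript length, so values are compared between libraries and not between genes.

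RNA was sequenced from whole retinas of wild-type Sprague-Dawley rats at postnatal week 12, collected on day 31 after transplantation, with 3 libraries in each of 5 groups. The NT group was healthy and received neither cells nor sodium iodate. The sham group received sodium iodate (NaIO3), which is toxic to the retinal pigment epithelium, at 40 mg/kg, with vehicle injected into the vitreous beforehand. The MSC group received the same agent after human mesenchymal stem cells of Wharton's jelly, the MSCEPO group after the same kind of cells with a lentiviral erythropoietin gene, and the DPSC group after cells labelled DPSC. The labels state that rats with xenografts were given dexamethasone at 2 mg/kg before surgery and then oral cyclosporin at 10 mg/kg/day, so the MSC, MSCEPO and DPSC groups differ from NT in NaIO3, cells and immunosuppression at once, and these cannot be told apart. The labels do not say whether the sham rats were given the same drugs. They also do not say whether each library came from a different rat, though the paper speaks of biological replicates. The p-values measure the spread between these libraries, which may be partly technical. In whole tissue, fewer cells of a type and less RNA per cell cannot be told apart.

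NF-κB is a family of transcription factors that bind DNA as pairs of subunits. In resting cells the pairs are held in the cytoplasm by inhibitor proteins of the IκB family, and receptors for tumor necrosis factor, interleukin-1 and microbial products free them by way of the IκB kinase complex. In the canonical branch the pairs are mostly RelA or c-Rel with p50, made from Nfkb1. In the non-canonical branch RelB pairs with p52, made from Nfkb2. Several members of the system are themselves targets of NF-κB, among them its inhibitors, which makes their mRNA a common readout of the pathway. In the retina, microglia, infiltrating leukocytes and Müller glia are known to use it.

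Promoters of the members are shown because several members are known targets of the system they belong to. RefSeq promoters (build GRCr8, which is not the build of the expression values) were found for 8 of the 10 members, all but Relb and Ikbke. The NF-κB consensus was searched on both strands of the 250 bases before each start. It was found in 6 of the 8 members (Nfkb2, Rel, Nfkbia, Nfkbie, Bcl3 and Tnfaip3) and in 3.82% of all 27457 genes with a promoter entry. No match was found before Nfkb1 or Rela. The 9-base site GGACTTTCC was found in 3 of the 8 members (Nfkb2, Nfkbia and Tnfaip3) and in 0.259% of all genes. It lay within a consensus match in Nfkb2 and Tnfaip3, and in Nfkbia at -180 to -172, outside any consensus match and outside the stretch shown. Stretches of 100 bases are given 5′ to 3′ on the strand of the gene, with capitals marking the match to the consensus. They end at the base before the start, except that of Nfkbie, which lies 100 bases further upstream.
Nfkb2, chr1:255108274-255108373, plus strand: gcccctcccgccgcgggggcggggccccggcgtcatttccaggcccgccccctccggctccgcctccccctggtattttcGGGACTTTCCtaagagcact
Rel, chr14:101921939-101922038, minus strand: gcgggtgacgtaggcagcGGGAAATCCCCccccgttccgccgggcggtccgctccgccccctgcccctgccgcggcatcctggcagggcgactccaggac
Nfkbia, chr6:78597073-78597172, minus strand: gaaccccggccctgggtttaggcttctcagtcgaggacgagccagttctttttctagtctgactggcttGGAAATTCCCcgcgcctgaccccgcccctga
Tnfaip3, chr1:15543980-15544079, minus strand: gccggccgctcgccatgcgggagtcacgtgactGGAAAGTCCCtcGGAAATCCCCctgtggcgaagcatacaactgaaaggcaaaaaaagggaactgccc
Bcl3, chr1:88613556-88613655, minus strand: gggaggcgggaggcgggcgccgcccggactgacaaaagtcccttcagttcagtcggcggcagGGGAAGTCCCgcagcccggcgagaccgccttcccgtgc
Nfkbie, chr9:22947973-22948072, minus strand: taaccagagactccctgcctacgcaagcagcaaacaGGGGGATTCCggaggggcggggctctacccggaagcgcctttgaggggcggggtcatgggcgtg

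The match of Nfkb2 lay at -20 to -11 from the start. In Tnfaip3 a pair of matches lay 2 bases apart, at -67 to -58 and -55 to -46, and another at -170 to -161, outside the stretch shown. The capitals of Rel hold 2 overlapping matches, one on each strand. A match describes the letters of the promoter and does not show that a subunit was bound there in these retinas.

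Facts that touch every result below concern the make-up of the tissue. The mean rlog value of 8 photoreceptor genes ran from 15.04 to 15.11 in NT, from 14.23 to 14.41 in sham, from 13.57 to 13.60 in MSC, from 13.22 to 13.71 in MSCEPO and from 13.42 to 14.22 in DPSC. The mean of 11 macrophage and microglia genes ran from 6.74 to 7.07 in NT, from 7.73 to 8.50 in sham, from 8.69 to 10.24 in MSC, from 8.36 to 9.31 in MSCEPO and from 7.72 to 8.97 in DPSC. In sham against NT all 11 genes had a positive difference, with a median of 1.21, though 0 were called (limma). Against NT, 10 of them were called higher in MSC, 10 in MSCEPO and 1 in DPSC. Of all tested genes, 0.888% were called in sham, 17.4% in MSC, 11.6% in MSCEPO and 2.85% in DPSC. The mean of 6 Müller glia genes ran from 12.52 to 12.83 in NT and from 13.28 to 13.85 in the other libraries. This rise was largest for Gfap, a gene of reactive glia, from 9.43 to 10.08 in NT and 12.71 to 14.13 in the others. Vim and Slc1a3 also lay above NT in every other library, while Glul, Rlbp1 and Aqp4 overlapped NT. The mean of 11 T and NK cell genes ran from 4.16 to 4.34 in NT, 4.34 to 4.43 in sham, 5.15 to 7.49 in MSC, 4.70 to 5.48 in MSCEPO and 4.4 to 5.26 in DPSC, and MSC replicate 1 was also highest for 4 B cell genes, at 9.04 against at most 4.32 in NT. The library labelled MSCEPO replicate 3 and DPSC replicates 1 and 3 had the highest values of 6 lens genes, from 13.23 to 14.99, against 8.19 to 11.92 in the other libraries. MSC replicate 1 was the highest of the 15 libraries for 8 of the 10 members, all but Bcl3 and Tnfaip3.

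Among the subunits, Nfkb1, Nfkb2 and Relb were lowest in healthy retina, higher in sham and highest on average in the MSC group. Nfkb1, which encodes p50 and its precursor p105, had rlog values of 9.35, 9.49 and 9.48 in NT, 9.84, 9.79 and 9.80 in sham, 10.69, 10.13 and 9.96 in MSC, 10.11, 10.04 and 9.52 in MSCEPO, and 9.73, 10.06 and 9.71 in DPSC. Every library with NaIO3 lay above every NT library. From low to high the means were in the order NT, sham, DPSC, MSCEPO and MSC, and after the step from NT to sham each neighbour in that order overlapped the next.

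Nfkb2, which encodes the non-canonical subunit p52 and its precursor p100, had rlog values of 6.85, 6.62 and 6.38 in NT, 7.17, 7.18 and 7.26 in sham, 9.0, 7.86 and 7.49 in MSC, 7.72, 7.78 and 7.02 in MSCEPO, and 7.38, 7.73 and 7.0 in DPSC. The order of the means was that of Nfkb1, and again only NT and sham were neighbours without overlap. The MSC group had the widest spread (SD 0.79, n = 3), with replicate 1 more than 1 log2 unit above the other 2 libraries.

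Relb encodes RelB, the partner of p52. Its rlog values were 6.02, 5.92 and 5.84 in NT, 6.49, 6.51 and 6.4 in sham, 7.69, 6.97 and 6.90 in MSC, 6.99, 6.90 and 6.67 in MSCEPO, and 6.58, 6.76 and 6.59 in DPSC. The order of the groups was the same as for Nfkb1, and here neither NT and sham nor sham and DPSC overlapped.

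Rela and Rel, the subunits of the canonical branch with a transactivation domain, were called in none of the 10 comparisons in the fit of all 15 libraries. Rela, which encodes RelA (p65), had rlog values of 9.19, 9.11 and 8.93 in NT, 9.11, 9.24 and 9.09 in sham, 9.89, 9.38 and 9.24 in MSC, 9.23, 9.33 and 9.30 in MSCEPO, and 9.33, 9.27 and 9.15 in DPSC. The order of the means was once more NT, sham, DPSC, MSCEPO and MSC, and each neighbour overlapped the next. Rel, which encodes the lymphoid subunit c-Rel, had 6.15, 6.27 and 6.22 in NT, 6.17, 5.84 and 6.25 in sham, 7.95, 6.35 and 6.4 in MSC, 6.35, 6.13 and 5.64 in MSCEPO, and 6.17, 6.24 and 6.10 in DPSC. Apart from MSC replicate 1, all 14 values of Rel lay between 5.64 and 6.4. From low to high its means were in the order MSCEPO, sham, DPSC, NT and MSC, and MSC alone did not overlap its neighbour.

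**Figure D1:**
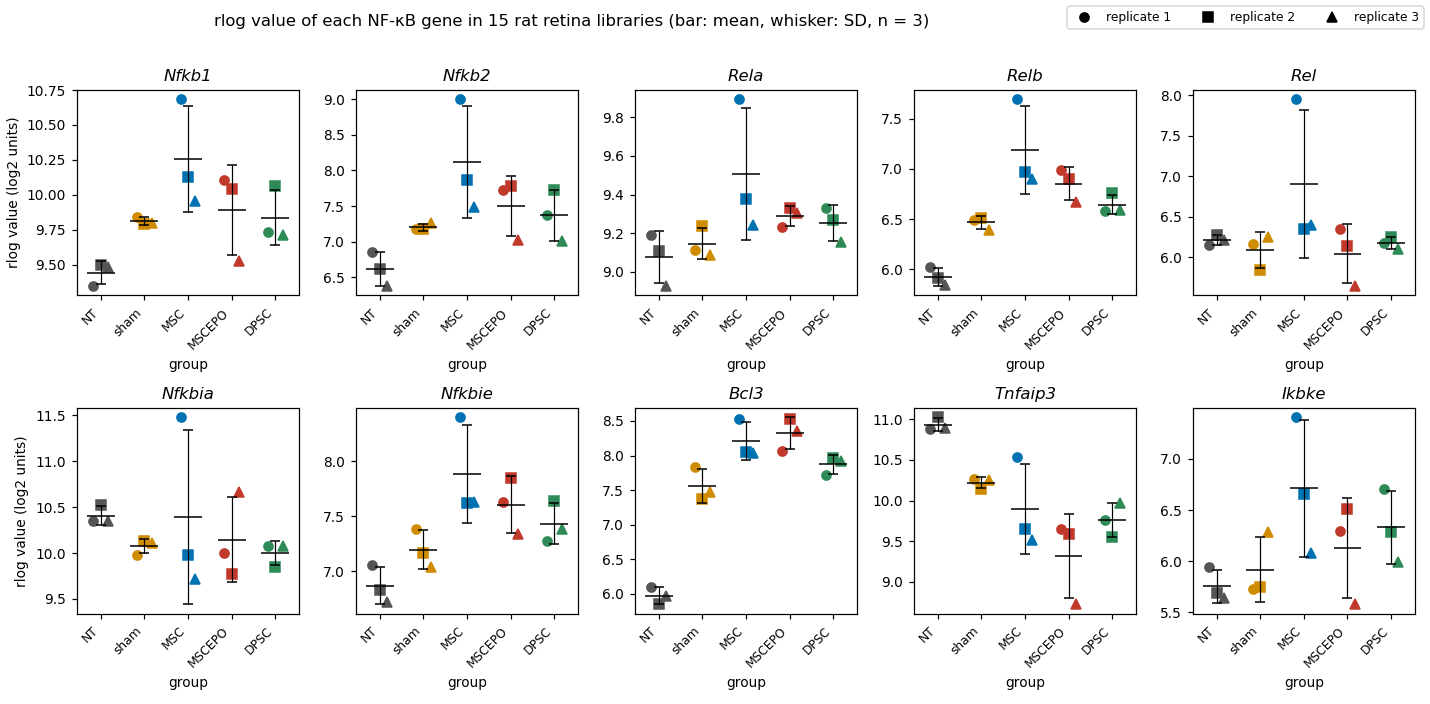
Rlog value (log2 units) of each NF-κB gene in the 15 libraries by group. Each point is 1 library with its shape giving the replicate number, the bar is the group mean and the whisker the SD (n = 3), and the vertical axes differ between genes. Bcl3 separates NT from all other libraries, Tnfaip3 is highest in NT, and MSC replicate 1 is the highest library in the panels of the 5 subunits, Nfkbia, Nfkbie and Ikbke.

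Among the inhibitors and regulators, Bcl3 lay higher and Tnfaip3 lower in every library with NaIO3 than in healthy retina. Bcl3 encodes an atypical IκB protein that resides in the nucleus, where it binds p50 or p52 and can repress or activate their targets. Its rlog values were 6.09, 5.85 and 5.96 in NT, 7.83, 7.37 and 7.47 in sham, 8.52, 8.06 and 8.04 in MSC, 8.07, 8.53 and 8.36 in MSCEPO, and 7.72, 7.97 and 7.92 in DPSC. The lowest library with NaIO3 was 1.28 log2 units above the highest NT library. The means from low to high were in the order NT, sham, DPSC, MSC and MSCEPO, where sham overlapped DPSC and MSC overlapped MSCEPO, while the MSC libraries lay just above the DPSC libraries.

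Tnfaip3 encodes A20, an enzyme that edits ubiquitin chains and shuts off signaling to the IκB kinases. Its rlog values were 10.88, 11.02 and 10.89 in NT, 10.27, 10.14 and 10.25 in sham, 10.53, 9.65 and 9.51 in MSC, 9.64, 9.59 and 8.72 in MSCEPO, and 9.76, 9.55 and 9.97 in DPSC. All 12 libraries with NaIO3 lay below all NT libraries. From high to low the means were in the order NT, sham, MSC, DPSC and MSCEPO, and the groups after sham overlapped their neighbours. MSC replicate 1, where the leukocyte genes were highest, was also the highest library for Tnfaip3 outside NT.

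Nfkbia encodes IκBα, an inhibitor that NF-κB rapidly induces. Its rlog values were 10.35, 10.53 and 10.35 in NT, 9.98, 10.13 and 10.11 in sham, 11.48, 9.98 and 9.72 in MSC, 10.00, 9.77 and 10.67 in MSCEPO, and 10.08, 9.85 and 10.08 in DPSC. The 2 libraries that stand apart, MSC replicate 1 and the library labelled MSCEPO replicate 3, held the 2 highest values, and the other 10 libraries with NaIO3 were all below NT. From low to high the means were in the order DPSC, sham, MSCEPO, MSC and NT, with overlap between all neighbours.

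Nfkbie encodes IκBε, another cytoplasmic inhibitor. Its rlog values were 7.05, 6.83 and 6.72 in NT, 7.39, 7.16 and 7.04 in sham, 8.40, 7.62 and 7.63 in MSC, 7.63, 7.85 and 7.33 in MSCEPO, and 7.27, 7.64 and 7.39 in DPSC. Unlike Nfkbia, it followed the order NT, sham, DPSC, MSCEPO and MSC, with overlap between all neighbours. Ikbke encodes IKKε, a kinase related to the IκB kinases that also acts in interferon signaling. Its rlog values were 5.94, 5.69 and 5.64 in NT, 5.73, 5.75 and 6.28 in sham, 7.41, 6.66 and 6.08 in MSC, 6.30, 6.51 and 5.58 in MSCEPO, and 6.71, 6.29 and 5.99 in DPSC. From low to high the means were in the order NT, sham, MSCEPO, DPSC and MSC, again with overlap between all neighbours.

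The comparison of sham with NT asks what NaIO3 with a vehicle injection left in the retina, together with the immunosuppression if the sham rats were given it. Bcl3 rose by 1.59 on the log2 scale (SE 0.17, 3.01-fold, limma, Benjamini-Hochberg adjusted p = 0.00193), from 5.97 ± 0.12 to 7.56 ± 0.24 (SD, n = 3). It was the only one of the 10 members past the threshold, where 0.888% of all tested genes were called. Tnfaip3 differed by -0.71 (SE 0.26, adjusted p = 0.27) and Relb by 0.54 (SE 0.18, adjusted p = 0.203). Both were among the 3 members with an unadjusted p under 0.05, where 1905 of all 15424 tested genes had one. The 3 sham libraries did not overlap NT for 6 members, where 31.9% of all tested genes did not. Of these, Nfkb1, Nfkb2, Relb and Bcl3 were higher, as were 16.6% of all tested genes, and Nfkbia and Tnfaip3 lower, as were 15.3%.

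The other 14 ways of running this comparison each called Bcl3 (highest adjusted p = 0.0173), and the call of other members depended on the spread used. The fit above takes its spread from all 15 libraries, and for Nfkb1, as an example, the SD was 0.082 in NT and 0.029 in sham but 0.38 in MSC, 0.32 in MSCEPO and 0.20 in DPSC. With the NT and sham libraries alone in the fit, limma called 6 of the 10 members, the same 6 whose libraries did not overlap, among them Tnfaip3 (adjusted p = 0.00361) and Relb (adjusted p = 0.014). In that fit 8.65% of all tested genes were called.

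Each cell group was then compared with sham, which asks what the cells added to NaIO3, together with the immunosuppression if the sham rats had none. These comparisons share the sham libraries. In MSC the differences were 0.91 (SE 0.33) for Nfkb2, 0.81 (SE 0.34) for Rel, 0.79 (SE 0.32) for Ikbke, 0.72 (SE 0.18) for Relb, 0.68 (SE 0.21) for Nfkbie and 0.65 (SE 0.17) for Bcl3. With limma 0 of the 10 members were called (lowest adjusted p = 0.134, for Relb), and so were 0 of all tested genes (0%), while 8 members and 2052 genes had an unadjusted p under 0.05. For 7 members, the 5 subunits, Nfkbie and Bcl3, all MSC libraries lay above all sham libraries, where 13.1% of all tested genes lay above and 24.5% did not overlap.

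The MSC values depended on replicate 1. Without it, and without the library labelled MSCEPO replicate 3, the difference from sham was 0.47 for Nfkb2, 0.29 for Rel, 0.45 for Ikbke, 0.47 for Relb, 0.43 for Nfkbie and 0.49 for Bcl3, and Nfkbia turned from 0.32 to -0.23. With weights that count such libraries less, 8 of the 10 members were called, 7 of them higher and Tnfaip3 lower, where 18.1% of all tested genes were called. Tnfaip3 was at -0.58 with the weights (adjusted p = 0.00217), against -0.32 (SE 0.26, adjusted p = 0.664) without them and -0.64 without MSC replicate 1. Without MSC replicate 3, 1 member was called, Relb at 0.87 (adjusted p = 0.0277), where 4.53% of all tested genes were.

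In MSCEPO against sham, Tnfaip3 differed by -0.90 (SE 0.26, adjusted p = 0.361) and Bcl3 by 0.76 (SE 0.17, adjusted p = 0.158), and the other 8 members by -0.04 to 0.41. No member was called by limma, where 0.0259% of all tested genes were. Tnfaip3 and Bcl3 were the 2 members with an unadjusted p under 0.05, where 1281 of all tested genes had one. The groups did not overlap for those members or for Relb, 3 of the 10, where 14.3% of all tested genes did not. With weights, 3 members were called, Relb, Bcl3 and Tnfaip3, where 7.16% of all tested genes were.

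In DPSC against sham, the differences ran from -0.46 (SE 0.26) for Tnfaip3 to 0.41 (SE 0.32) for Ikbke. Limma called 0 of the 10 members, where 0.0195% of all tested genes were called. An unadjusted p under 0.05 was found for 0 members and for 366 of all tested genes. For Bcl3 the difference was 0.31, with a 95% interval from -0.06 to 0.68. Relb was higher and Tnfaip3 lower in all 3 DPSC libraries than in all sham libraries, 2 of the 10 members, where 9.82% of all tested genes did not overlap.

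**Figure D2:**
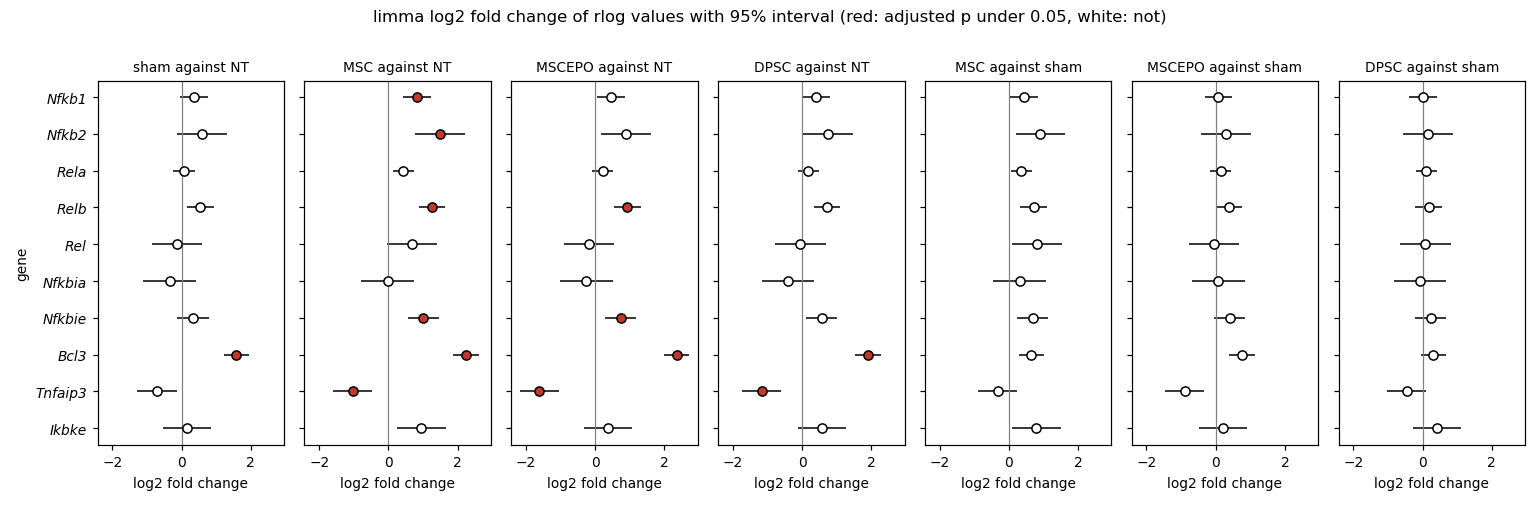
Log2 fold change of the rlog values (horizontal axes) of each of the 10 NF-κB genes with its 95% interval in 7 comparisons of the limma fit of all 15 libraries. Red points passed an adjusted p of 0.05 and white points did not: 1, 6, 4 and 2 genes passed against NT for sham, MSC, MSCEPO and DPSC, and 0 passed in the 3 comparisons with sham.

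Against healthy retina, Bcl3 rose and Tnfaip3 fell in every cell group. These comparisons share the NT libraries, and NaIO3, cells and drugs all differ. In MSC, 6 of the 10 members were called, 5 higher and 1 lower, where 17.4% of all tested genes were called, 11% higher and 6.37% lower. Bcl3 rose by 2.24 (SE 0.17, adjusted p = 7.33e-05), Nfkb2 by 1.5 (SE 0.33, adjusted p = 0.00955), Relb by 1.26 (SE 0.18, adjusted p = 0.00118), Nfkbie by 1.01 (SE 0.21, adjusted p = 0.00684) and Nfkb1 by 0.82 (SE 0.19, adjusted p = 0.0109). Tnfaip3 fell by 1.03 (SE 0.26, adjusted p = 0.0186). Rela differed by 0.43 (SE 0.14, adjusted p = 0.0545) and Ikbke by 0.96 (SE 0.32, adjusted p = 0.0598), while Rel differed by 0.69 (SE 0.34) and Nfkbia by -0.02 (SE 0.35).

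The calls of Bcl3, Relb, Nfkb1, Nfkb2 and Nfkbie held in all 15 alternatives. That of Tnfaip3 held in 10 and was lost at an adjusted p of at most 0.0687, without any 1 NT library or without MSC replicate 2 or 3. Without MSC replicate 3, Rela was called at 0.56 (adjusted p = 0.0174) and Ikbke at 1.28 (adjusted p = 0.0151). Without MSC replicate 1, Rela was at 0.24 (adjusted p = 0.171), Ikbke at 0.61 (adjusted p = 0.222) and Rel at 0.16 (adjusted p = 0.641), none of them called. For Nfkbia, the value without MSC replicate 1 was -0.56 (adjusted p = 0.106), and it was called when the library labelled MSCEPO replicate 3 was left out as well (adjusted p = 0.00658) and with array weights, at -0.41 (adjusted p = 0.0224), where 49.4% of all tested genes were called.

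In MSCEPO against NT, 4 of the 10 members were called, where 11.6% of all tested genes were called. Bcl3 rose by 2.35 (SE 0.17, 5.10-fold, adjusted p = 2.91e-05), Relb by 0.93 (SE 0.18, adjusted p = 0.00594) and Nfkbie by 0.74 (SE 0.21, adjusted p = 0.039). Tnfaip3 fell by 1.61 (SE 0.26, adjusted p = 0.00229). Without the library labelled MSCEPO replicate 3, Tnfaip3 was still called and 6 members passed, where 19.4% of all tested genes did, with Nfkb1 at 0.64 (adjusted p = 0.0261) and Nfkb2 at 1.13 (adjusted p = 0.041) added. The call of Nfkbie was the least steady and held in 6 of 15 alternatives, ending, among others, when any 1 NT library or MSCEPO replicate 1 or 2 was left out (highest adjusted p = 0.143, without NT replicate 3).

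In DPSC against NT, 2 of the 10 members were called, where 2.85% of all tested genes were called. Bcl3 rose by 1.90 (SE 0.17, 3.74-fold, adjusted p = 0.000496), a call that held in all 14 alternatives. Tnfaip3 fell by 1.17 (SE 0.26, adjusted p = 0.0348), and its call held in 8 of 14 and ended without any 1 NT library or without DPSC replicate 1 or 2 (highest adjusted p = 0.145, without DPSC replicate 2). Relb differed by 0.72 (SE 0.18, adjusted p = 0.0508). With the 2 libraries with high lens values, DPSC replicates 1 and 3, left out together, Bcl3 was the only member called, where 2.51% of all tested genes were. That fit holds a single DPSC library, replicate 2, which is assumed to vary like the other groups.

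Set side by side over the 4 comparisons with NT, Bcl3 was 1.59, 2.24, 2.35 and 1.90 higher in sham, MSC, MSCEPO and DPSC. Tnfaip3 was at -0.71, -1.03, -1.61 and -1.17 in the same order, and Relb at 0.54, 1.26, 0.93 and 0.72. Bcl3 and Tnfaip3 thus differed from NT in opposite directions in all 4 comparisons, although Tnfaip3 was not called in sham. The median difference over the 10 members was 0.25, 0.89, 0.41 and 0.48, where the median over all tested genes was between -0.0036 and 0.0047. The numbers of members whose libraries did not overlap NT were 9 in MSC, 7 in MSCEPO and 8 in DPSC, where 44.1%, 31.4% and 31.7% of all tested genes did not.

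The comparison of MSC with MSCEPO asks what the change of the cells altered, and no member was called. Per the paper, the MSCEPO cells also carried a GFP marker from the lentivirus and were sorted on CD44 and GFP. With no group given an empty vector, these and the erythropoietin gene cannot be told apart. Rel was 0.86 higher in MSC (95% interval 0.13 to 1.58, limma adjusted p = 0.754), and Tnfaip3 0.58 higher (95% interval 0.01 to 1.15, adjusted p = 0.754). These were the 2 members with an unadjusted p under 0.05, with 585 of all tested genes, and 0 genes in all (0%) were called. The libraries of the groups overlapped for all 10 members, where 4.09% of all tested genes did not overlap. Bcl3 differed by -0.11 (95% interval -0.48 to 0.26). Without MSC replicate 1 and the library labelled MSCEPO replicate 3, Rel differed by 0.13, Tnfaip3 by -0.04, Nfkb2 by -0.07 and Relb by -0.01.

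DPSC was also compared with the other cell groups. Against MSC, 0 of the 10 members were called by limma and 4 had an unadjusted p under 0.05, where 0 of all tested genes (0%) were called and 1083 had an unadjusted p under 0.05. All 10 differences were negative, where the median over all tested genes was -0.0023. For Nfkbia and Tnfaip3 the sign rested on MSC replicate 1, at 11.48 and 10.53. The other MSC libraries were at 9.98 and 9.72 for Nfkbia, against 10.08, 9.85 and 10.08 in DPSC. For Tnfaip3 they were at 9.65 and 9.51, against 9.76, 9.55 and 9.97. Relb, Rel and Bcl3 were lower in every DPSC library than in every MSC library. That is 3 of 10, where 6.7% of all tested genes did not overlap. Against MSCEPO, 0 members and 0 of all tested genes (0%) were called. Bcl3 was the 1 member with an unadjusted p under 0.05, where 382 of all tested genes had one. It was also the 1 member that did not overlap, where 4.34% of all tested genes did not.

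The rest of the pathway was read from 5 lists written by name. The 11 receptors tested had the largest median differences from NT. In sham against NT, Tnfrsf1a, the main receptor of tumor necrosis factor, rose by 0.93 (SE 0.19, adjusted p = 0.0466) as the only one called, a call that held in 6 of 14 alternatives. In MSC against NT, 10 of the 11 were higher, among them Tlr2, a receptor for bacterial lipoproteins, by 1.91 (SE 0.35, adjusted p = 0.00375), Tnfrsf1b by 1.52 (SE 0.43, adjusted p = 0.0307), Tnfrsf1a by 1.40 (SE 0.19, adjusted p = 0.00112) and Cd40, an activator of the non-canonical branch, by 0.93 (SE 0.26, adjusted p = 0.0292). Without MSC replicate 1, Tnfrsf1b was at 0.99 (adjusted p = 0.109) and Cd40 at 0.53 (adjusted p = 0.0452), and each call held in 9 of 15 alternatives. In MSCEPO 5 were higher, Tnfrsf1a at 1.44, Tlr2 at 1.45, Il1r1 at 1.30, Ltbr at 1.03 and Tnfrsf11a at 0.64, and in DPSC 2, Tnfrsf1a at 1.04 and Ltbr, the lymphotoxin beta receptor, at 0.90. In MSCEPO the calls of Il1r1, Tlr2 and Tnfrsf11a held in 9, 11 and 11 of 15 alternatives, and in DPSC those of Tnfrsf1a and Ltbr each held in 12 of 14. Ltbr, Il1r1 and Tnfrsf11a, and Il18, Irak1, Irak4, Malt1, Azi2, Tnip2, Lcn2, Csf1, Ier3 and Nos2 named below, were chosen after their values were seen.

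Of the ligands, 4 of 10 were tested, and Tnf itself was not, with rlog values of at most 2.63. All 4 were higher in MSC against NT, among them Il1b, which encodes interleukin-1 beta, by 1.03 (SE 0.32, adjusted p = 0.0414). That call held in 7 of 15 alternatives, and without MSC replicate 1 the value was 0.52 (adjusted p = 0.0463) and 2 ligands were called. In MSCEPO 1 was higher, Il18, which encodes interleukin-18, by 1.16, a call that held in 10 of 15 alternatives, and 0 were called in sham or DPSC. With only the 2 groups compared in the fit, 0 ligands were called in MSC against NT.

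The 27 kinases and adaptors that pass the signal on had median differences from NT between 0.0029 and 0.22. In MSC against NT 9 were higher and 1 lower, Azi2 at -0.28, and without MSC replicate 1 the calls numbered 5. In MSCEPO the kinases Irak1 (0.31) and Irak4 (1.09), which act below the Toll-like and interleukin-1 receptors, and Malt1 (0.55) were higher and Azi2 (-0.31) lower. In DPSC 1 was higher, Irak4 at 0.95, and in sham 0 were called. Several of these calls were unsteady: in MSCEPO that of Malt1 held in 7 of 15 alternatives and those of Irak1 and Azi2 in 8 each, that of Azi2 in MSC in 8 of 15, and that of Irak4 in DPSC in 8 of 14. The genes of the IκB kinase complex, Chuk, Ikbkb and Ikbkg, were called in none of these comparisons, and in MSC against NT they differed by -0.08, 0.04 and -0.04. Tbk1, the closest relative of Ikbke, differed by 0.05 there. Map3k14, which encodes the kinase NIK of the non-canonical branch, was higher by 0.28 (SE 0.09, adjusted p = 0.0481), a call that held in 4 of 15 alternatives.

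Of 10 other inhibitors, 2 were higher in MSC against NT, with Tnip2 at 0.39, and 1 in MSCEPO. In both, Nfkbiz, which encodes the nuclear IκBζ and is related to Bcl3, was called, at 1.14 (SE 0.19, adjusted p = 0.00271) and 0.71 (SE 0.19, adjusted p = 0.0317), and the latter call held in 8 of 15 alternatives. That of Tnip2 held in 10 of 15. Nfkbib (IκBβ), Cyld, another enzyme that removes ubiquitin chains, and Tnip1, which assists A20, were called in no comparison with NT. In MSC they differed by 0.10, 0.31 and 0.41.

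Of 21 known target genes outside the members, 1 was called in sham against NT, Lcn2, which encodes the iron-binding lipocalin-2, higher by 1.40 (SE 0.20, adjusted p = 0.00674). In MSC against NT 11 were higher, among them the chemokine Cxcl10 by 2.60 (SE 0.34, adjusted p = 0.000839), the adhesion molecule Icam1 by 1.95 (SE 0.33, adjusted p = 0.00285) and the chemokine Ccl2 by 1.65 (SE 0.48, adjusted p = 0.0333). Without MSC replicate 1, 7 targets were called and Ccl2, at 1.29 (adjusted p = 0.131), was not. Vcam1, also an adhesion molecule, differed by 1.38 (SE 0.59, adjusted p = 0.133), and Sod2, which encodes the mitochondrial superoxide dismutase, by 0.03 (SE 0.16). In MSCEPO 5 targets were higher, Lcn2 at 2.35, Cxcl10 at 1.64, Csf1 at 1.64, Icam1 at 1.47 and Ier3 at 0.61, and 1 lower, Nos2 at -0.40, a call that held in 4 of 15 alternatives. The calls of Lcn2 and Cxcl10 in MSC and MSCEPO against NT held in all 15. In DPSC 2 were higher, Lcn2 at 1.71 and Csf1, the growth factor of macrophages, at 1.38, a call that held in 6 of 14 alternatives. Against sham, 0 genes of the 5 lists were called in any cell group in the fit of all 15 libraries, as for the members. With array weights, MSC against sham called 7 of the 11 receptors, 13 of the 21 targets and 4 of the 4 ligands tested. In that fit 18.1% of all tested genes were called, against 0% without weights.

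**Figure D3:**
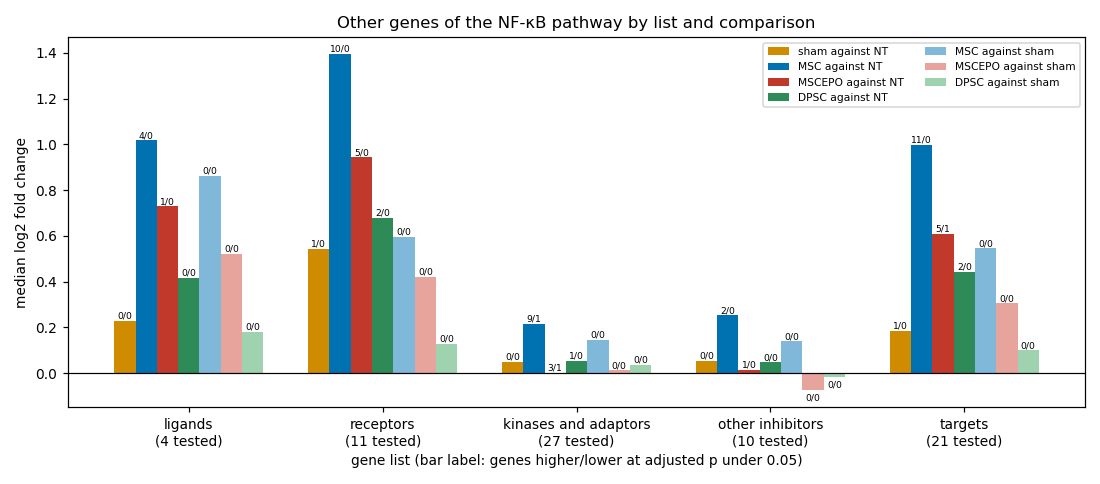
Median log2 fold change of the rlog values (vertical axis) of the tested genes of 5 lists of the NF-κB pathway in 7 comparisons. The numbers at the bars count the genes higher and lower at an adjusted p under 0.05. Receptors in MSC against NT have the highest bar, with 10 of 11 genes higher, and the bars of kinases and adaptors stay near 0.

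Most of the members moved with markers of other cell types, whose part in these results was not tested. Correlations over the 15 libraries are given as a description, since the libraries share groups and tissue make-up. Relb had a Pearson's r of 0.96 with the mean of the macrophage and microglia genes, Nfkbie 0.93, Nfkb1 and Nfkb2 0.92, and Rela 0.78. Without MSC replicate 1, Relb had an r of 0.95 with these genes, of 0.98 with the Müller glia genes and of -0.96 with the photoreceptor genes. The r of Rel with the macrophage and microglia genes was 0.54, and 0.066 without MSC replicate 1, where those with the photoreceptor and Müller glia genes were -0.036 and -0.0083. Bcl3 followed the fall of the mean of the photoreceptor genes (r = -0.92) and the rise of the mean of the 6 Müller glia genes (r = 0.90). Its r with the macrophage and microglia genes was 0.84. The Müller glia genes did not all rise: 3 of the 6 had a positive difference from NT in sham, and 4 in each cell group. Gfap rose most and so weighs most in this mean, and the r with each single gene of the list is not given. For Tnfaip3 the r with the photoreceptor genes was 0.79, and 0.88 without MSC replicate 1. Nfkbia had an r of 0.14 with the macrophage and microglia genes and of -0.62 without MSC replicate 1.

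**Figure D4:**
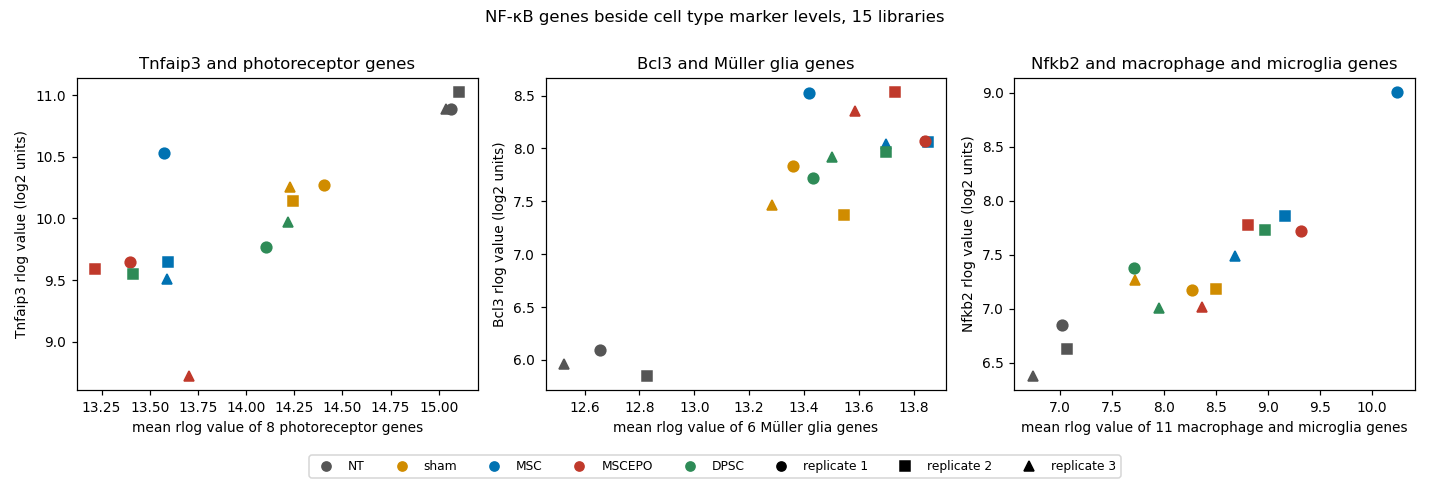
Rlog values of Tnfaip3, Bcl3 and Nfkb2 (vertical axes, log2 units) against the mean rlog value of 8 photoreceptor, 6 Müller glia and 11 macrophage and microglia genes (horizontal axes) in the 15 libraries, with color for the group and shape for the replicate. Tnfaip3 is highest in the NT libraries, where the photoreceptor genes are highest, with the library labelled MSCEPO replicate 3 lowest at 8.72. Nfkb2 is highest in MSC replicate 1, at 9.0, where the macrophage and microglia genes are highest too.

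Among themselves, most members rose and fell together. Over the 15 libraries the r was 0.96 for Nfkb1 with Nfkb2 and for Relb with Nfkbie, and 0.95 for Nfkb2 with Relb, the genes of the non-canonical pair. With the group means removed the same pairs had an r of 0.89, 0.91 and 0.93. Nfkbia stood apart, with an r between -0.09 and 0.61 with the other members. All these values include MSC replicate 1, and ranks (Spearman's rho) weigh such a library less. The rho of Nfkbia was negative with every member but Tnfaip3, from -0.48 for Nfkb1 to 0.57 for Tnfaip3. For Rela with Rel an r of 0.74 stood beside a rho of 0.13. The 3 pairs named first had a rho of 0.94, 0.90 and 0.86. Bcl3 and Tnfaip3 had an r of -0.78, which was 0.34 with the group means removed. So their opposite course lay between the groups and not between libraries of a group.

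**Figure D5:**
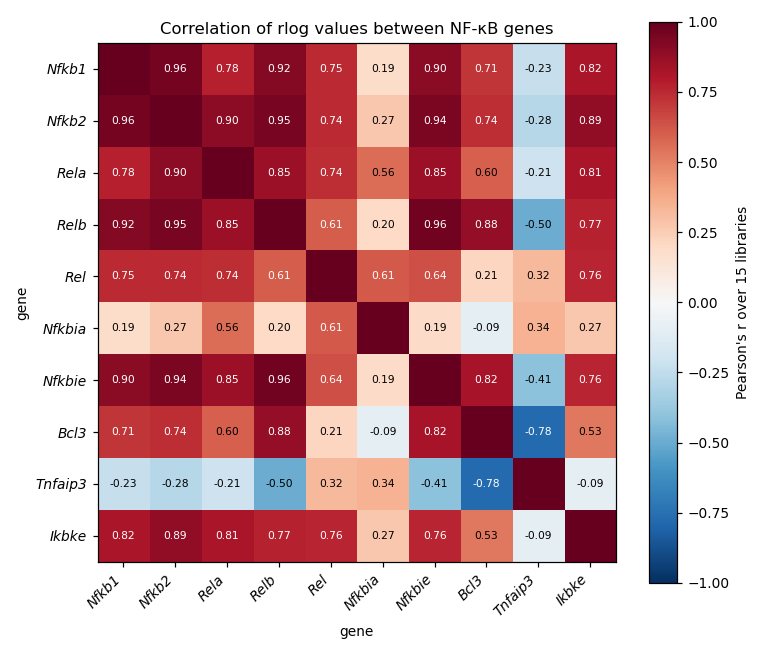
Pearson's r between the rlog values of each pair of the 10 NF-κB genes over the 15 libraries (both axes list the genes, and color and printed number give r). Nfkb1, Nfkb2, Rela, Relb, Nfkbie and Ikbke form a block with r of at least 0.76, while Nfkbia and Tnfaip3 stay apart from it. MSC replicate 1 is included, and by ranks the lowest Spearman's rho in the block is 0.59, for Nfkb1 with Rela.

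Differences between a pair of members within a library, chosen after the values were seen and given without a test, restate the same values. Bcl3 minus Tnfaip3 was between -5.17 and -4.79 in NT, between -2.79 and -2.43 in sham, and between -2.05 and -0.36 in the 9 libraries with cells. Healthy retina, sham and the libraries with cells and immunosuppression did not overlap in this difference. As the pair was picked with its opposite course known, this separation adds no support. How many other pairs of genes separate in this way was not counted. Relb minus Rela was between -3.19 and -3.09 in NT, between -2.73 and -2.62 in sham and between -2.75 and -2.20 in the libraries with cells, which overlapped sham. Since a gene's transcript length adds the same amount in every library, the change between libraries and not the size of these differences can be read.

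The genes most like each member in their course over the 15 libraries were found by Pearson's r. The search covered the tested genes with a symbol and left out the members and all genes of the pathway and marker lists. Genes of those lists may therefore come closer. For Bcl3 they were Jak3 (r = 0.99), which encodes a kinase of cytokine receptors, and Sbno2 (r = 0.97). For Relb they were C1qc (r = 0.98), a subunit of complement C1q, and Mvp (r = 0.98), and for Nfkb2 they were Rin3 (r = 0.98) and Tlr6 (r = 0.98), a Toll-like receptor. Nfkb1 was most like Parvg and Map3k8 (both r = 0.97), Nfkbie most like Fes and Fermt3 (r = 0.97 and 0.96), and Ikbke most like Chst15 and Tent5c (both r = 0.95). Tnfaip3 was most like Lcmt2 and Zfp707 (both r = 0.96), and Nfkbia most like Sik1 and Ptpn2 (both r = 0.95). For Rela, Pfn1 and Mob3a (both r = 0.96), and for Rel, Capza1 and Esyt1 (r = 0.95 and 0.94) came closest, and without MSC replicate 1 the r of Rel with these genes was 0.73 and 0.60.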

How the data were processed

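RNA-Seq was performed by the authors on 15 rat retina libraries in 5 groups of 3. Per the labels and the study's methods, the authors quantified the reads with Salmon 1.1.0 on the rat transcriptome (Rnor_6.0), summed transcripts to genes and applied the rlog transformation of DESeq2 (3.2 in the submitters' processing notes). The deposited log2 values are these rlog values, in which the authors accounted for library size. They hold no counts, so the depth behind each value is unknown and no detection limit is given. Library medians lay between 8.63 and 8.82. The files also hold 15 further columns of per-sample values whose names match no label and were not used. No 2 libraries were identical (0 pairs).

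Groups were taken from the labels, which name no sequencing batch or date. Genes averaging 3.32 or more on the rlog scale (10 on the linear scale) were tested with limma 3.58.1 in R 4.3.3, all 15 libraries in one fit with group means and a trend of the variance on the mean. P-values were two-sided and adjusted by the Benjamini-Hochberg method over all 15424 tested genes in each of 10 comparisons, with a threshold of 0.05. The values had been expected to be rlog values from the study's methods, and no test was changed. The members and lists were chosen with earlier results of these data known. The genes named are the members, pathway genes fixed by name, and others said in the text to be chosen after their values were seen. Also named are the 2 tested genes most correlated with each member, among those with a symbol and on no list. Of the pathway and marker lists, 6 symbols were not found in the files. The smallest p of an exact permutation test of 3 libraries against 3 is 0.1, and none was used.

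Alternatives were a filter applied to each library or dropped, fits of only 2 groups, a replicate block, median centring, quantile normalization, array weights (gene-by-gene method), 12 libraries without DPSC, a fold change over 2 and each library left out. Deviations from the group means of same-numbered libraries correlated at 0.26, 0.16 and 0.28 between MSC and MSCEPO. Between MSCEPO and DPSC they correlated at -0.33, 0.40 and 0.65. Such values do not show a pairing, and no label names one. Leaving out MSC replicate 1 with MSCEPO replicate 3, and DPSC replicates 1 and 3, was chosen after seeing the data. On simulated data for sham against NT with 15424 genes, limma called 90 of 100 genes changed by 1.5 log2 units, 100 of 100 changed by 3, and 11 unchanged genes.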

Additional observations from a re-analysis of the deposited data

How the results depend on the processing

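Median centring, quantile normalization, no filter and a filter in every library moved no count of called members by more than 1.5 times. Array weights, which gave least weight to the library labelled MSCEPO replicate 3 and to MSC replicate 1 (0.0826 and 0.206), moved most: the number of called members was 4 in sham against NT, 8 in MSC against sham, 3 in MSCEPO against sham, 8 in MSCEPO against NT, 7 in DPSC against NT and 2 in DPSC against MSC, where 15.4%, 18.1%, 7.16%, 39.3%, 23.8% and 11.9% of all tested genes were called. With only the 2 groups compared in the fit it was 6 in sham against NT (8.65% of all tested genes). With a fold change over 2 it was 2 in MSCEPO against NT. Without MSC replicate 1 and MSCEPO replicate 3 together it was 7 in MSCEPO against NT (27.5%). Without DPSC replicates 1 and 3 together it was 1 in DPSC against NT (2.51%), in a fit with 1 DPSC library, which is assumed to vary like the other groups. With each library left out in turn the counts ran from 0 to 1 in MSC against sham, from 5 to 7 in MSC against NT, from 3 to 6 in MSCEPO against NT and from 1 to 2 in DPSC against NT, and were 1 in sham against NT throughout. In the same order, the share of all tested genes called ran from 0% to 4.53%, 8.73% to 17.7%, 5.19% to 19.4% and 0.648% to 2.94%. In sham against NT it ran from 0.175% to 0.298%. The cause of these moves was not tested.

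The replicate numbers are shared between groups. In 9 of the 10 pairs of groups at least 1 pair of same-numbered libraries had a correlation of its deviations under 0.1 (12 of all 30 were over 0.1, range -0.44 to 0.65), and 6 of 15 libraries correlated best with their own number. MSC and MSCEPO were the exception, and the replicate block changed no call between them. With the replicate block, the number of called members was 1 in sham against NT, 8 in MSC against NT, 4 in MSCEPO against NT and 3 in DPSC against NT. In those fits 0.973%, 17.7%, 11.9% and 3.2% of all tested genes were called. In the other 6 comparisons it was 0, where at most 0.00648% of all tested genes were called.

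Direction turned only for members whose difference was not called in the fit of all 15 libraries. The turns given here leave out DPSC against MSC and DPSC against MSCEPO. In sham against NT, Ikbke was at -0.0036 with quantile normalization and between -0.017 and 0.26 with 1 library left out, and Rela at -0.0047 with array weights and between -0.0035 and 0.13. In MSC against sham, Nfkbia was at -0.052 with array weights, at -0.23 without MSC replicate 1 and MSCEPO replicate 3 together, and between -0.23 and 0.66 with 1 library left out. In MSCEPO against sham, Rel was at 0.041 with array weights, 0.16 without both libraries and between -0.20 and 0.16 with 1 left out, Nfkbia at -0.18, -0.19 and between -0.19 and 0.26, and Nfkb1 between -0.027 and 0.26 with 1 left out. In DPSC against sham, Nfkb1 was at -0.044 with array weights and between -0.090 and 0.087 with 1 left out, Rel between -0.041 and 0.17, Nfkb2 between -0.015 and 0.35, and Nfkbia between -0.12 and 0.0049. Against NT, Nfkbia in MSC ran from -0.56 to 0.32 and Rel in MSCEPO from -0.33 to 0.028 with 1 left out, with Rel at 0.028 without both libraries, and Rel in DPSC was at 0.030 without DPSC replicates 1 and 3. In MSC against MSCEPO, without both libraries, Nfkb1 was at -0.033, Nfkb2 at -0.073, Relb at -0.010, Nfkbia at -0.037, Nfkbie at -0.12, Tnfaip3 at -0.037 and Ikbke at -0.038, with Nfkbie at -0.12 also with array weights and Nfkbia between -0.30 and 0.58 with 1 left out.

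The rlog scale understates fold changes, most for low genes, and without counts the depth behind a value is unknown.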
